A study of Mus musculus with 54 samples.

Results

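Mouse day 2 primordial germ cell-like cells (PGCLC) of a line that carries an E-cadherin transgene, Cdh1-Tg, were compared with wild-type (WT) PGCLC. PGCLC are a culture model of the founders of the germ line, made from embryonic stem cells (ESC) through an epiblast-like state (EpiLC). The comparison rests on 4 of the 54 libraries of the study, the 2 titled Cdh1-Tg and the 2 titled wild type at the PGCLC stage. The study followed 9 lines through the 3 stages with 2 libraries per group. Libraries of the line titled TKO, the EpiLC and ESC of Cdh1-Tg and WT, and the line titled Ovol2a/2b-Tg are used here as reference points. For a few genes the line titled Ovol3KO is used too, and for 1 set of genes all 54 libraries are.

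All of these samples share the strain label C57BL/6 X 129/SvJ. For WT, Cdh1-Tg, TKO and Ovol2a/2b-Tg the genotype labels read wild type, Cdh1 OE, TKO and Ovol2a/2b OE. What TKO stands for is not spelled out. For Cdh1-Tg, the cells into which the transgene was placed, the promoter that drives it and whether the line is 1 clone are not stated in the labels. The study's title and design are about Ovol2 and the Ovol family, which encode zinc finger transcription factors. The comparison asks how the line titled Cdh1-Tg differs from wild type. Effects of the transgene and of the background of the line cannot be told apart in it. Nothing in the labels says that the 2 libraries of a group were grown separately. Each p-value is set against the scatter between libraries of the same group, pooled over the 9 lines of the study. That scatter may be technical.

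In the labels the Cdh1-Tg PGCLC pair carries the cell type tag of ESC, while its titles and source names say day 2 PGCLC. The data side with the titles. Over all tested genes the Cdh1-Tg PGCLC libraries differed from the WT PGCLC mean by an average absolute log2 difference of 0.449 and 0.446. Their distance was 0.886 and 0.881 to WT EpiLC and 0.967 and 0.964 to WT ESC. Genes active in day 2 PGCLC gave a mixed picture. The mesoderm factor T was at 651 and 633 TPM (transcript abundance per gene length, scaled to the same total in each library), the BMP target Id1 at 476 and 463, and the germ cell regulator Prdm14 at 13.8 and 14.7, while the germ cell genes Dppa3 and Nanos3 were at 0.195 and 0.228 TPM and at 1.97 and 2.55 TPM, below WT as given further on.

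Whole read numbers recovered from the TPM values gave depths, in units of 1000000 reads, of 14.65 and 12.45 in the Cdh1-Tg pair, 5.22 and 6.94 in the WT pair and 2.94 and 12.34 in the TKO pair. The Cdh1-Tg pair varied little beyond read sampling, with a chi-square of 1.41 per degree of freedom against 2.66 in the WT pair.

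E-cadherin is the adhesion protein of epithelial cells. Its outer part binds E-cadherin on the neighbouring cell, and its tail holds beta-catenin, which links it to actin and is also a carrier of the WNT signal. During gastrulation cells that leave the epiblast lower E-cadherin and raise N-cadherin in an epithelial to mesenchymal transition (EMT), and the transcription factors of the Zeb, Snail and Twist families repress epithelial genes in that step. Germ cell precursors arise beside these mesoderm cells under BMP and WNT signals.

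Cdh1-Tg PGCLC had more Cdh1 mRNA than WT. Cdh1 (mm10 chromosome 8, 106603350 to 106670247) stood at 562 and 563 TPM in Cdh1-Tg, 312 and 320 TPM in WT and 24 and 17.2 TPM in TKO. The 3 pairs did not overlap. The log2 fold change against WT was 0.83 ± 0.11 (SE, limma, Benjamini-Hochberg (BH) adjusted p = 4.25e-05), which passed the test but stayed below the fold of 1 on the log2 scale that a call required here. Against TKO it was 4.72 ± 0.11 (adjusted p = 1.24e-12). All folds are on the log2(TPM + 1) scale, which understates the change of scarce genes. A gene-level TPM does not separate transcripts of the transgene from those of the gene itself.

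**Figure D1:**
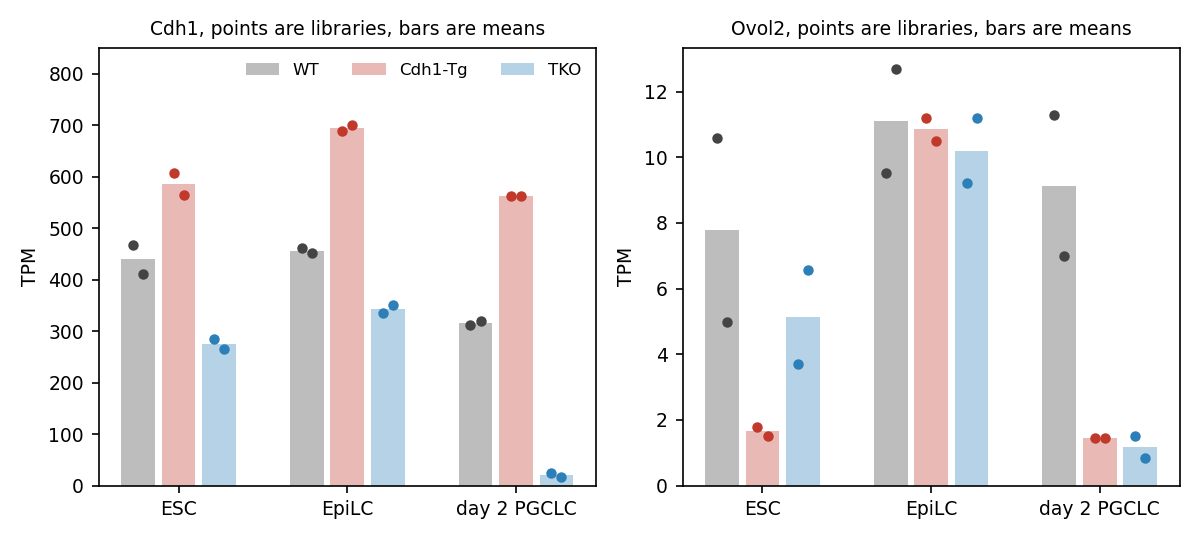
TPM of Cdh1 (left) and Ovol2 (right) in each library of WT, Cdh1-Tg and TKO at the 3 stages; points are libraries and bars are the means of 2. Among the plotted lines Cdh1 is highest in Cdh1-Tg at every stage, while Ovol2 in PGCLC is near 1.46 TPM in Cdh1-Tg against 6.98 and 11.3 in WT.

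Excess Cdh1 was present before the PGCLC stage. In EpiLC it was 689 and 701 TPM in Cdh1-Tg against 461 and 451 in WT, a log2 fold change of 0.61 ± 0.09 (limma, adjusted p = 2.94e-06). In ESC the values were 606 and 565 against 468 and 411 (0.41 ± 0.09, adjusted p = 0.00062). The line titled Ovol3KO overlapped Cdh1-Tg at both of these stages, at 714 and 631 TPM in EpiLC and 598 and 568 in ESC. In PGCLC it was at 355 and 348 TPM. For Cdh1-Tg the difference of the effect between PGCLC and EpiLC was 0.22 ± 0.13 (interaction in limma, adjusted p = 0.239). In TKO EpiLC Cdh1 was at 336 and 350 TPM, far above the TKO PGCLC values.

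Ovol2 (mm10 chromosome 2, 144305175 to 144332080), a repressor of EMT genes, was at 1.46 and 1.46 TPM in Cdh1-Tg PGCLC, at 11.3 and 6.98 in WT and at 1.52 and 0.835 in TKO. It was lower than WT by a log2 fold change of -2.01 ± 0.27 (adjusted p = 4.71e-05) and was not distinguished from TKO (0.19 ± 0.27). In EpiLC Ovol2 was not distinguished from WT, at 11.2 and 10.5 TPM against 9.51 and 12.7, and the effect differed between the stages (-1.99 ± 0.39, interaction adjusted p = 0.000221). In ESC Ovol2 was lower than WT as in PGCLC, at 1.8 and 1.5 TPM against 10.6 and 4.98 (-1.66 ± 0.27, adjusted p = 1.29e-05). The effect in PGCLC was not distinguished from that in ESC (-0.35 ± 0.39, interaction adjusted p = 0.533). TKO held Ovol2 mRNA at 9.21 and 11.2 TPM in EpiLC and at 3.72 and 6.57 in ESC. The WT-like EpiLC level was thus not particular to Cdh1-Tg. In Cdh1-Tg PGCLC Ovol1 was scarce, at 0.22 and 0.257 TPM against 1.02 and 0.325 in WT (-0.40 ± 0.25, adjusted p = 0.238). Ovol3 was at 6.95 and 5.26 TPM against 9.39 and 9.66 in WT (-0.58 ± 0.24, adjusted p = 0.07).

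Of 14416 genes tested, 1421 (9.86%) were called different between Cdh1-Tg and WT PGCLC, 801 higher (5.56%) and 620 lower (4.3%). These shares are the background for the counts against WT of every gene list below. To be called, a gene needed a BH adjusted p under 0.05 and a log2 fold change of 1 or more in either direction. The pairs did not overlap in 10484 of the tested genes, so a gap between the pairs alone is common here. The median log2 fold change of all tested genes was 0.06. Scaling libraries to a common distribution brought the split to 685 higher and 678 lower, and scaling to a common median to 686 and 702. A direct test of Cdh1-Tg against TKO PGCLC called 331 genes (2.3%), 143 higher (0.992%) and 188 lower (1.3%). Values are shares of the mRNA in a bulk sample, so fewer cells of a type and less RNA per cell cannot be told apart.

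The largest falls were in claudins and other epithelial genes, in pluripotency genes and in immediate early genes. By the log2 fold change they were Cldn6, Fosb, Cldn7, Dppa5a, Ap1m2, Cldn4, Hist2h2ab, Esrp1, Hist2h2ac, Fos, Tdh and Utf1. The largest rises were Plac1, Unc5c, Col1a1, Rgs5, Adgra3, Dlk1, Tnc, Hoxb6, Tgfbi, Capn6, Mest and Gfra3. Plac1, a placental and mesodermal transcript, went from 1.18 and 0.588 TPM to 56.3 and 54.8. Unc5c, a netrin receptor, went from 1.94 and 1.18 TPM to 58.2 and 55.2. The pericyte gene Rgs5 went from 0.233 and 0 TPM to 23.9 and 22.4.

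**Figure D2:**
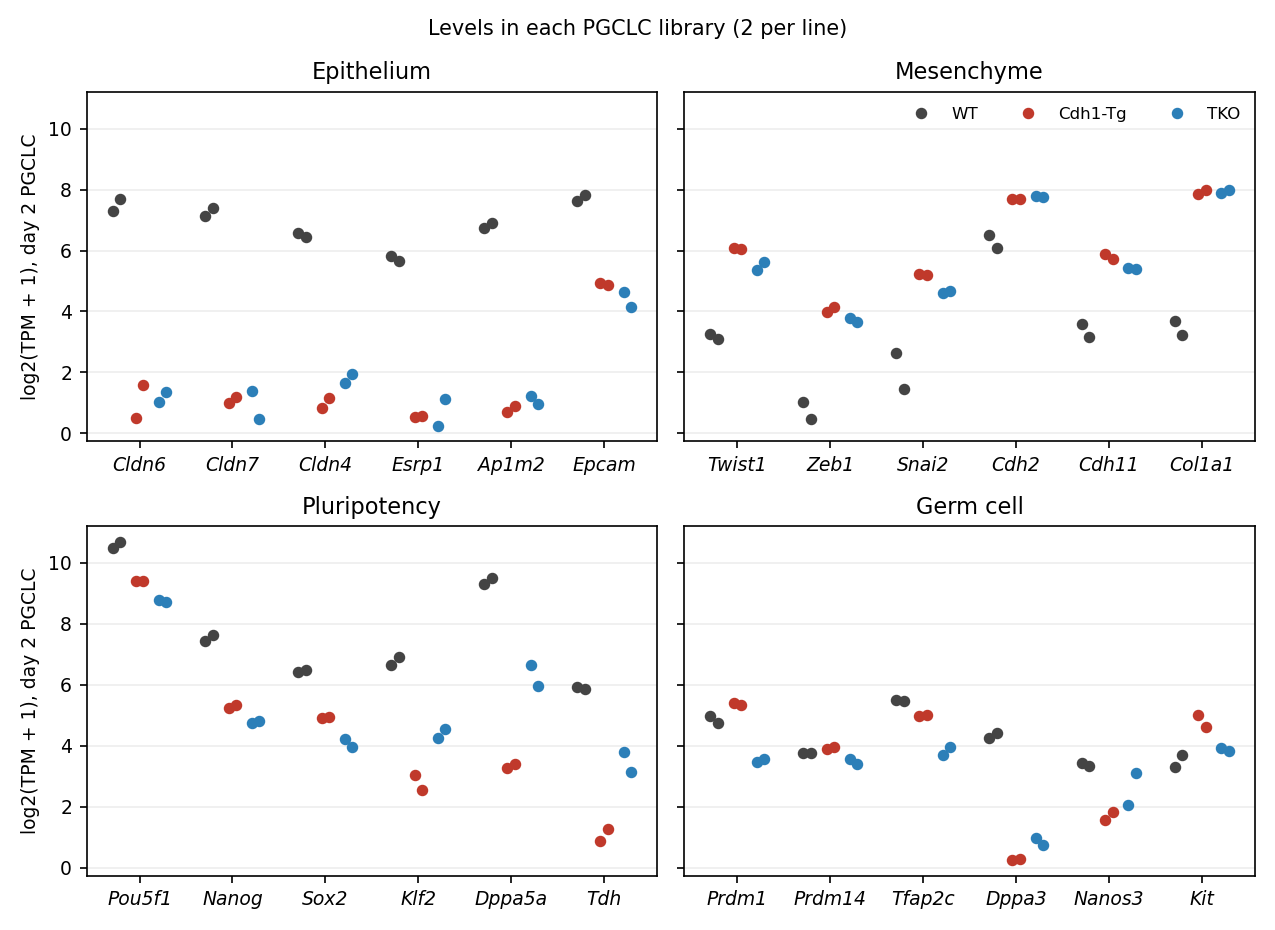
log2(TPM + 1) in each PGCLC library of WT, Cdh1-Tg and TKO for 6 genes each of epithelium, mesenchyme, pluripotency and germ cells. The Cdh1-Tg points lie with TKO and away from WT for epithelial and mesenchymal genes, below TKO for Klf2, Dppa5a and Tdh, and above TKO for Prdm1 and Tfap2c.

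Catenins and other adhesion belt genes encode the partners of E-cadherin at the adherens junction. Of 24 tested 0 rose and 1 fell, with a median log2 fold change of 0.06, and the share that fell is near that of all tested genes (4.3%). Beta-catenin mRNA, Ctnnb1, was at 656 and 657 TPM in Cdh1-Tg and 624 and 645 in WT (0.05 ± 0.04, adjusted p = 0.403). That estimate is small enough to change sign with the scaling, from -0.01 under quantile to -0.03 under median scaling. Alpha-catenin, Ctnna1, was at 336 and 330 TPM against 360 and 353, and p120-catenin, Ctnnd1, at 184 and 192 against 187 and 170. The gene that fell was Jup, plakoglobin, which also serves desmosomes: it stood at 18.1 and 19.1 TPM against 84.3 and 88.5 in WT (-2.16 ± 0.09, adjusted p = 7.25e-10). In TKO Jup was at 27.4 and 29.1 TPM. Smaller differences that passed the test but not the fold were seen in the nectin Pvrl1 (10.6 and 11 TPM against 18.5 and 18), the nectin Pvrl3 (47.1 and 45.1 against 23 and 22.2) and the junctional protein Plekha7 (8.98 and 8.76 against 16.7 and 15.7).

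Other cadherins rose beside Cdh1. Of 14 tested classical and type II cadherins 4 rose and 0 fell. N-cadherin, Cdh2, was at 204 and 205 TPM in Cdh1-Tg against 89.3 and 66.7 in WT (1.39 ± 0.27, adjusted p = 0.00129), level with the 219 and 216 TPM of TKO. Cdh11, a mesenchymal cadherin, was at 58.5 and 52 TPM against 10.9 and 7.91 (2.45 ± 0.19, adjusted p = 1.89e-07). Cdh20 and Cdh15 were scarce and rose to 3.56 and 4.45 TPM and to 1.79 and 1.24 TPM. Among those not called, P-cadherin, Cdh3, was at 10.7 and 9.59 TPM against 15.3 and 13.7, and Cdh4, Cdh6, Cdh10, Cdh13 and Cdh22 had adjusted p values of at least 0.333. N-cadherin and E-cadherin mRNA were thus both above WT in Cdh1-Tg, whereas TKO had high Cdh2 and low Cdh1.

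Many epithelial genes were lower. Of 31 tested epithelial regulators and markers 19 fell and 1 rose (median log2 fold change -1.67). Of 27 tight junction and apical polarity genes 11 fell and 2 rose (median -0.76), and of 10 desmosome genes 3 fell and 0 rose. Against TKO none of the 3 lists had a fall, and the rises were 1 in the epithelial list (Cdh1 itself), 1 among tight junction genes (Jam2) and 0 among desmosome genes.

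Claudins form the seal of the tight junction. Cldn6 was at 0.424 and 1.98 TPM in Cdh1-Tg, 157 and 206 in WT and 1.03 and 1.58 in TKO. Its log2 fold change against WT was -6.46 ± 0.46 (adjusted p = 3.01e-07). Cldn7 was at 0.988 and 1.28 TPM against 138 and 167 (-6.17 ± 0.24, adjusted p = 5.58e-10), and Cldn4 at 0.793 and 1.23 against 93.5 and 85.3 (-5.50 ± 0.30). Cldn4 was at 2.14 and 2.83 TPM and Cldn7 at 1.6 and 0.378 TPM in TKO, so Cdh1-Tg overlapped TKO for Cldn6 and Cldn7, lay below it for Cldn4 and was far below WT for all 3. Occludin, Ocln, was at 0.15 and 0.408 TPM against 7.13 and 10.5 in WT.

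Crb3, an apical polarity protein, was at 0.552 and 0.966 TPM against 25.1 and 29.1 (-4.01 ± 0.24, adjusted p = 1.64e-08). The list's largest exception was Cgnl1, which encodes a cingulin-like junction protein and rose to 35.1 and 36 TPM from 7.11 and 5.52 (2.33 ± 0.20, adjusted p = 5.78e-07).

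Among the regulators, the splicing factor Esrp1 was at 0.442 and 0.469 TPM in Cdh1-Tg and 54.9 and 49.3 in WT (-5.19 ± 0.24, adjusted p = 2.23e-09). Grhl2, a transcription factor that maintains epithelia, was at 0.903 and 0.903 TPM against 11.1 and 12 (-2.72 ± 0.20). Ap1m2, the epithelial subunit of a clathrin sorting complex, was at 0.642 and 0.857 TPM against 106 and 118 (-6.01 ± 0.27, adjusted p = 2.23e-09). The adhesion protein Epcam kept more of its transcript, 29.5 and 28.4 TPM against 195 and 224 (-2.81 ± 0.15, adjusted p = 7.77e-09). The recycling GTPase Rab25 was listed at 0 in both Cdh1-Tg libraries and both TKO libraries, and at 16.7 and 9.2 TPM in WT. The exception in the list was the growth factor receptor Fgfr2, which rose from 1.42 and 2.53 TPM to 7.01 and 6.68 (1.43 ± 0.29, adjusted p = 0.00138).

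The keratins Krt8 and Krt18 and the main desmosomal protein, picked out after their values were seen, were not called, whereas the keratin Krt7 fell (-1.67 ± 0.27, adjusted p = 0.000176). Krt8 was at 839 and 907 TPM in Cdh1-Tg against 580 and 530 in WT (0.65 ± 0.23, adjusted p = 0.0426) and Krt18 at 425 and 443 against 355 and 314 (0.38 ± 0.22, adjusted p = 0.209). Desmoplakin, Dsp, was at 79.1 and 82.7 TPM against 119 and 92.6 (-0.37 ± 0.19, adjusted p = 0.153). In the desmosome list the falls were in Pkp3 (0.262 and 0.428 TPM against 9.27 and 8.88), Ppl (0.356 and 0.326 against 3.36 and 3.21) and Perp (44.5 and 45.8 against 120 and 94.4).

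Promoters of some epithelial genes that fell are shown because Zeb and Snail proteins are known to bind the E-box CACCTG, read as CAGGTG on the opposite strand, in such promoters. The sequences are the 250 bases before the annotated start in RefSeq (GRCm38.p6, the assembly behind mm10), read 5′ to 3′ on the strand of the gene, with each E-box in capitals. All promoters shown hold an E-box, while those of some other genes that fell, such as Cldn3, hold none in these bases. Ap1m2 lies on the minus strand at chr9:21312334-21312583, Crb3 on the plus strand at chr17:57061951-57062200 (the first of its 2 listed starts), Epcam on the plus strand at chr17:87635729-87635978, Cldn4 on the minus strand at chr5:134946935-134947184 and Cldn6 on the plus strand at chr17:23679115-23679364.
Ap1m2: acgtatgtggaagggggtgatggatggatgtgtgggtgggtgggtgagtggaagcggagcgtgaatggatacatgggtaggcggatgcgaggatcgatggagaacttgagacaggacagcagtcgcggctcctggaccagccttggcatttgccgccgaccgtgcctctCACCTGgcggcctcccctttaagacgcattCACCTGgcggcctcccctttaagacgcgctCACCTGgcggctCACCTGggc
Crb3: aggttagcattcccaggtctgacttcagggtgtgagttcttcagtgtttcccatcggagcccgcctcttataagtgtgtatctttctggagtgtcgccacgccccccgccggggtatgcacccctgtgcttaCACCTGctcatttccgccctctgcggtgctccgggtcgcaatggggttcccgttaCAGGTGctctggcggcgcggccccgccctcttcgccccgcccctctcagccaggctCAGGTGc
Epcam: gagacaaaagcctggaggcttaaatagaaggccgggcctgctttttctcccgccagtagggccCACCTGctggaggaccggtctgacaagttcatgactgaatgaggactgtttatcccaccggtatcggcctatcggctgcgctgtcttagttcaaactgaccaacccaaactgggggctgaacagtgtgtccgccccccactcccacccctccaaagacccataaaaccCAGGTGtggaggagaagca
Cldn4: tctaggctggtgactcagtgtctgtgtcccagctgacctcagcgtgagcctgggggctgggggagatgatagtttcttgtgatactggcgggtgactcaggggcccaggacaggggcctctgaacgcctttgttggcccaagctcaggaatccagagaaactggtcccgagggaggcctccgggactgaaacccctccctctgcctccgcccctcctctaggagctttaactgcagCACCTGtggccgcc
Cldn6: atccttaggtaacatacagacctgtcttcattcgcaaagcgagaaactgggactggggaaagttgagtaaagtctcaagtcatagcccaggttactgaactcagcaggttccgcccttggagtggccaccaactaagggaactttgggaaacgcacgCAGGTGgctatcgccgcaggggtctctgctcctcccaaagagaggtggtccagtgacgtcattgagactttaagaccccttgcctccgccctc

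Ap1m2 holds 4 E-boxes, Crb3 3, Epcam 2, and Cldn4 and Cldn6 1 each. Of the 33 junction and epithelial genes that fell, 21 matched an entry in the promoter table and 14 of these (66.7%) held at least 1 E-box in the 250 bases. Members of the same lists that were not called held one in 7 of 17 (41.2%). The share was 19.6% of the 10928 tested genes with a promoter, 38.3% of all genes that fell (175 of 457) and 15.4% of all genes that rose (86 of 558). At least 2 E-boxes were found in 33.3% of the junction and epithelial genes that fell (7 of 21). Among members of the same lists that were not called the share was 11.8% (2 of 17). It was 9.41% for all genes that fell, 0.896% for all genes that rose and 2.53% for the tested genes. Cldn7 and Ocln were counted through a second listed start, as the first held no E-box. All E-box counts are matches of letters, not measured binding.

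EMT regulators and mesenchymal genes were higher. Of 28 tested genes 19 rose and 1 fell (median log2 fold change 1.35), and against TKO 1 rose and 0 fell. Zeb1, a repressor of epithelial genes, was at 14.9 and 16.6 TPM in Cdh1-Tg, 1.02 and 0.379 in WT and 12.7 and 11.7 in TKO (3.33 ± 0.23 against WT, adjusted p = 5.46e-08). Zeb2 was at 14.7 and 15.1 TPM against 3.6 and 3.7 in WT. Snai2 was at 36.6 and 35.7 TPM against 5.24 and 1.72 in WT (3.17 ± 0.41, adjusted p = 3.09e-05).

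Twist1 was at 66.5 and 66 TPM against 8.53 and 7.53 (2.90 ± 0.15, adjusted p = 4.85e-09), and Twist2 at 24.8 and 26.2 against 1.28 and 1.2 (3.56 ± 0.31, adjusted p = 5.18e-07). For each of these 5 regulators the Cdh1-Tg pair was as high as or above the lower TKO library. Snai3 was the member that fell, to 0.1 and 0.586 TPM from 4.51 and 4.16. Snai1, which is not named by the rule for genes but belongs to this family, was at 84.3 and 75.1 TPM against 62.9 and 46.8 and was not called (0.54 ± 0.16, adjusted p = 0.013). Vimentin, Vim, likewise picked out afterwards, was at 2080 and 2160 TPM against 570 and 452 (2.06 ± 0.11, adjusted p = 1.22e-08).

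Some matrix genes were higher too. Of 42 extracellular matrix and integrin genes 17 rose and 2 fell (median 0.83). Col1a1, a chain of fibrillar collagen, was at 230 and 250 TPM in Cdh1-Tg against 12 and 8.3 in WT (4.45 ± 0.33, adjusted p = 4.39e-07) and 236 and 254 in TKO. Nid1, which bridges laminin and collagen in basement membranes, was at 37.5 and 38.8 TPM against 6.83 and 5.83 in WT. Integrin subunit Itgb8 was at 27.5 and 25.1 TPM against 5.17 and 4.06 in WT and 12.3 and 9.86 in TKO, so that it exceeded both (1.18 ± 0.21 against TKO, adjusted p = 0.00136). Tgfbi, a matrix protein, did so too, at 67.5 and 54.8 TPM against 3.15 and 2.47 in WT and 30.4 and 21.6 in TKO (1.21 ± 0.28 against TKO, adjusted p = 0.00682). Spp1, osteopontin, was one of the falls, to 6.16 and 8.42 TPM from 32 and 24.7.

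Of 28 actin and smooth muscle genes 5 rose and 1 fell. Cardiac actin, Actc1, was at 123 and 141 TPM against 17.9 and 12.7 (3.05 ± 0.18, adjusted p = 1.42e-08). Tropomyosin, Tpm1, was at 1150 and 1180 TPM against 230 and 200 (2.43 ± 0.16, adjusted p = 8.73e-08). The brush border protein Vil1 was the fall, at 0.819 and 0.836 TPM against 2.7 and 3.13.

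**Figure D3:**
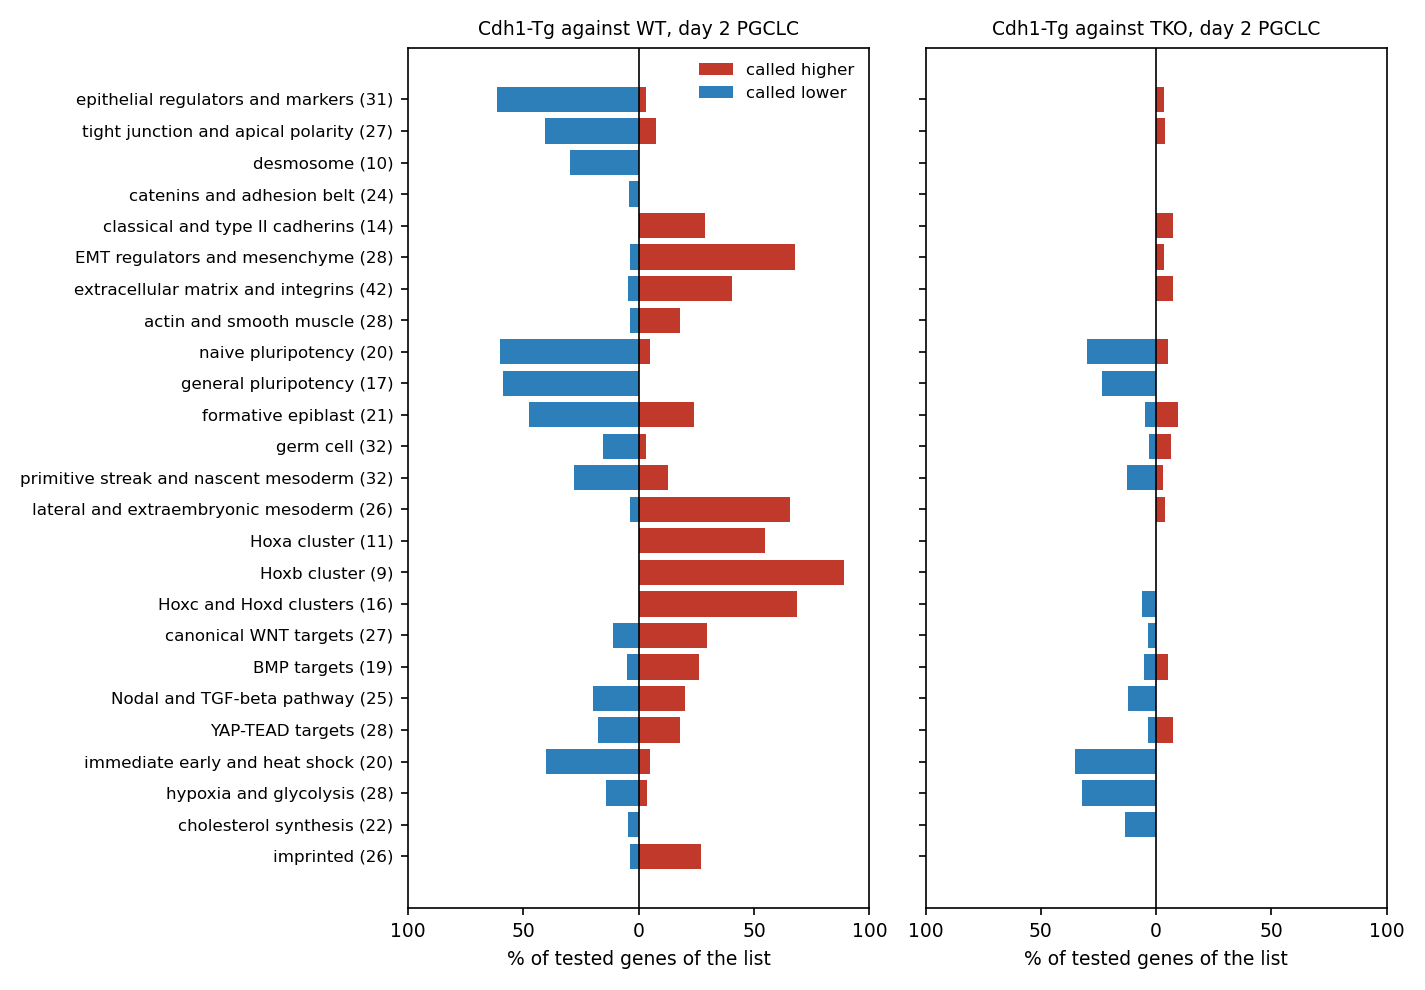
Share of tested genes called higher (to the right) and lower (to the left) in Cdh1-Tg PGCLC for 25 gene lists, against WT (left panel) and against TKO (right panel); the number of tested genes is in brackets. Against WT the long bars are epithelial and pluripotency genes to the left and EMT, lateral mesoderm and Hox genes to the right, while against TKO the longest are immediate early, hypoxia and naive pluripotency genes to the left.

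In the general and the naive pluripotency list over 50% of the tested genes fell. Of 17 general pluripotency genes 10 fell and 0 rose (median -1.52), and of 20 naive pluripotency genes 12 fell and 1 rose (median -1.63). Pou5f1, which encodes OCT4, was at 680 and 674 TPM in Cdh1-Tg, 1440 and 1640 in WT and 439 and 424 in TKO (-1.18 ± 0.09 against WT, adjusted p = 2.12e-07). Nanog was at 36.5 and 39.3 TPM against 172 and 198 (-2.26 ± 0.21, adjusted p = 1.64e-06), and Sox2 at 29.3 and 29.9 against 84.4 and 89.1 (-1.52 ± 0.21, adjusted p = 7.05e-05). In all 3 the Cdh1-Tg pair lay above TKO and below WT, with log2 fold changes of 0.50 to 0.86 against TKO that were not called.

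A second group of pluripotency genes lay below TKO as well. Dppa5a was at 8.73 and 9.61 TPM in Cdh1-Tg, 628 and 730 in WT and 98.2 and 61.8 in TKO (-6.06 ± 0.30 against WT, adjusted p = 6.16e-08; -2.96 ± 0.30 against TKO, adjusted p = 7.73e-05). Tdh, the threonine dehydrogenase of mouse ESC, was at 0.848 and 1.39 TPM against 59.3 and 56.7 in WT and 12.8 and 7.88 in TKO (-2.40 ± 0.25 against TKO). Dppa4 was at 0.728 and 0.971 TPM against 20.9 and 23.4 in WT and 8.08 and 7.39 in TKO (-2.24 ± 0.31 against TKO), and its neighbour Dppa2 behaved alike (-2.17 ± 0.30 against TKO).

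The naive factors Klf2, Klf4, Esrrb and Zfp42 were also lower than in TKO. Klf2 was at 7.29 and 4.82 TPM against 98.4 and 120 in WT and 17.9 and 22.5 in TKO (-1.60 ± 0.23 against TKO, adjusted p = 0.000373). Esrrb was at 0.449 and 0.685 TPM against 30.9 and 29.2 in WT and 3.02 and 3.25 in TKO (-1.40 ± 0.28 against TKO, adjusted p = 0.00303). Over the naive list 6 genes were lower and 1 higher than in TKO, and over the general list 4 were lower and 0 higher. The naive list's exception against WT was Pecam1, which rose to 16.3 and 12.8 TPM from 1.9 and 2.36 and is also a surface protein of endothelium.

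Formative epiblast genes were split, with 10 falls and 5 rises among 21. Fgf5 was at 0.318 and 0.149 TPM against 6.73 and 11.7 in WT, and Otx2, a repressor of germ cell entry, at 0.238 and 0.209 against 6.29 and 9.87 (-2.86 ± 0.26, adjusted p = 7.86e-07). The rises included Fgf15, at 38.5 and 38.6 TPM against 11.7 and 11.5. With quantile or median scaling the rises of this list were 3 in place of 5.

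Of 32 tested germ cell genes 5 fell, 1 rose and 26 were not called (median -0.18). Of all tested genes 4.3% fell and 5.56% rose, so falls were more frequent in this list. Prdm1, Tfap2c and Prdm14, the factors that specify germ cells, were not called against WT. Prdm1, which encodes BLIMP1, was at 41.5 and 39.4 TPM in Cdh1-Tg, 30.3 and 25.9 in WT and 10.1 and 10.9 in TKO. It was not called against WT (0.51 ± 0.21, adjusted p = 0.0632) and was higher than in TKO (1.85 ± 0.21, adjusted p = 3.44e-05). Tfap2c, which encodes AP2 gamma, was at 30.8 and 31.3 TPM against 44.1 and 43.7 in WT and 11.9 and 14.4 in TKO. It too was not called against WT (-0.48 ± 0.20, adjusted p = 0.0711) and was higher than in TKO (1.19 ± 0.20, adjusted p = 0.000917). Prdm14 was at 13.8 and 14.7 TPM against 12.5 and 12.7 in WT and 10.8 and 9.45 in TKO, and its log2 fold changes of 0.16 ± 0.15 and 0.46 ± 0.15 were not called.

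The 5 germ cell genes that fell were Dppa3, Nanos3, Tdrd5, Tdrd12 and Tcl1. Dppa3, which encodes Stella, was at 0.195 and 0.228 TPM against 18 and 20.4 in WT (-4.06 ± 0.26, adjusted p = 2.94e-08) and 0.947 and 0.671 in TKO. Nanos3, an RNA-binding protein needed for germ cell survival, was at 1.97 and 2.55 TPM against 9.81 and 9.05 (-1.68 ± 0.51, adjusted p = 0.0177), with TKO libraries at 3.18 and 7.52. Tdrd5, a tudor protein of the piRNA pathway, was at 4.91 and 4.93 TPM against 34.7 and 40.2, and Tdrd12 at 0.197 and 0.23 against 3.12 and 3.49. Tcl1 was listed at 0 in both Cdh1-Tg libraries and at 4.84 and 3.84 TPM in WT. Kit, the receptor for stem cell factor, was the rise, at 31.2 and 23.6 TPM against 8.78 and 12.1 in WT (1.31 ± 0.21, adjusted p = 0.000161).

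Primitive streak genes fell more often than they rose, 9 against 4 of 32 (median -0.58). T was at 651 and 633 TPM against 1160 and 1280 in WT and was not called (-0.92 ± 0.35, adjusted p = 0.0577). Eomes, a factor of anterior streak and endoderm, was at 5.24 and 7.77 TPM against 43.7 and 61.7 (-2.84 ± 0.31, adjusted p = 6.05e-06), and Mixl1 at 78.9 and 81.6 against 287 and 248 (-1.72 ± 0.36, adjusted p = 0.00294). The WNT agonist Rspo3 and the growth factor Fgf3 rose, to 200 and 196 TPM from 66.6 and 56.2 and to 40.5 and 34.8 TPM from 10.2 and 8.17. Without WT replicate 2 the rises of this list were 2 in place of 4.

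Of 25 tested genes of the Nodal and TGF-beta pathway 5 rose and 5 fell against WT, and 0 rose and 3 fell (Nodal, Lefty1, Lefty2) against TKO. The ligand Nodal was at 8 and 8.44 TPM against 77.2 and 112 in WT and 22.6 and 26.7 in TKO (-3.35 ± 0.16 against WT, adjusted p = 3.57e-09; -1.47 ± 0.16 against TKO, adjusted p = 2.76e-05). Its targets and inhibitors Lefty1 and Lefty2 were at 3.68 and 3.48 TPM and at 8.55 and 9.53 TPM, against 48.6 and 86.3 and 81.6 and 105 in WT. The co-receptor Tdgf1, also called Cripto, was at 212 and 218 TPM against 803 and 869 (-1.95 ± 0.13), while the related Cfc1 rose to 30.1 and 29.4 TPM from 7.3 and 3.94. Tgfb2, a TGF-beta ligand, was the largest rise in the list, at 18.2 and 17.7 TPM against 1.16 and 1.46 (3.04 ± 0.26, adjusted p = 3.72e-07).

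Genes of lateral and extraembryonic mesoderm rose, 17 of 26 against 1 fall (median 1.76). Hand1, a factor of lateral and extraembryonic mesoderm, was at 875 and 849 TPM in Cdh1-Tg, 141 and 80.9 in WT and 1310 and 1470 in TKO (limma, adjusted p = 0.000503 against WT). Isl1 was at 41.3 and 43.6 TPM against 6.34 and 2.49 (3.10 ± 0.45, adjusted p = 0.000114), and Tbx4 at 11.2 and 7.14 against 0.388 and 0.0966 (3.01 ± 0.30). Wnt5a was at 123 and 119 TPM against 26.2 and 23.6 (2.23 ± 0.30, adjusted p = 5.98e-05). Hand1 and Plac1 had fitted values below TKO (-0.68 and -0.85), which were not called. The fall in the list was Wnt2, at 1.28 and 1.32 TPM against 4.18 and 3.42.

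Hox genes rose in all 4 clusters, with 0 falls. The rises were 6 of 11 in Hoxa, 8 of 9 in Hoxb and 11 of 16 in Hoxc and Hoxd together. Hoxb6 was at 19.5 and 21 TPM in Cdh1-Tg, 0.319 and 0.238 in WT and 39.2 and 31 in TKO (4.06 ± 0.44 against WT, adjusted p = 6.07e-06). Hoxd9 was at 48.8 and 48.7 TPM against 4.21 and 2.85 (3.47 ± 0.34, adjusted p = 2.59e-06). Hoxc6, Hoxc8 and Hoxc9 were listed at 0 in both WT libraries and stood between 2.69 and 4.61 TPM in Cdh1-Tg.

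In the Hoxa cluster the calls were at paralogue numbers 5, 7, 9, 10, 11 and 13. Hoxa2 and Hoxa4, picked out after their values were seen, had log2 fold changes of -0.09 and -0.26 and were not called, while Hoxa10 rose to 4.82 and 4.74 TPM from 0.134 and 0.1 (2.37 ± 0.24) and Hoxa13 to 1.58 and 2.13 from 0 and 0.24. Because these genes are scarce, a pseudocount of 5 TPM left 1 rise in the Hoxa cluster. The median of the Hoxb list was 1.78 for Cdh1-Tg and 2.48 for TKO, both against the same WT libraries.

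**Figure D4:**
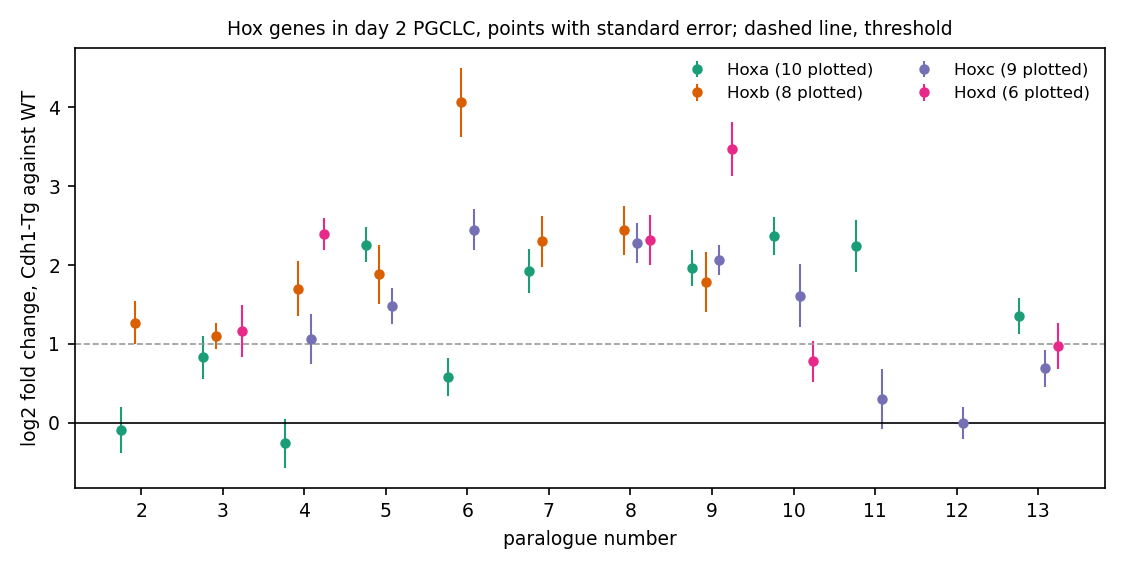
Log2 fold change of the tested Hox genes with paralogue numbers from 2 to 13 between Cdh1-Tg and WT PGCLC with its standard error, against the paralogue number, which follows the order along the cluster; the dashed line marks the fold a call requires. Hoxa2 and Hoxa4 lie near or below 0, and most points at numbers 5 to 9 lie above the line.

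Of the caudal genes, which encode activators of posterior Hox genes, Cdx2 and Cdx4 rose and Cdx1 fell. Cdx2 was at 436 and 410 TPM against 193 and 170 in WT (1.22 ± 0.23, adjusted p = 0.00095). Cdx4 was at 38.3 and 38 TPM against 3.17 and 1.58 in WT and 132 and 119 in TKO, so that it lay between the lines (3.58 ± 0.31 against WT; -1.69 ± 0.31 against TKO, adjusted p = 0.00182). Cdx1 was at 77.5 and 71.4 TPM against 201 and 219 (-1.48 ± 0.22, adjusted p = 0.000151).

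Targets of canonical WNT signalling gave 8 rises and 3 falls among 27 (median 0.31), and 0 rises and 1 fall (Cdx4) against TKO. Axin2, a general target, was at 124 and 125 TPM in Cdh1-Tg, 96.2 and 89.6 in WT and 153 and 134 in TKO (0.42 ± 0.14 against WT, adjusted p = 0.0267). It stayed below the fold threshold. Myc was at 109 and 101 TPM against 33.7 and 22.9 in WT (1.87 ± 0.18, adjusted p = 1.47e-06), and the secreted inhibitor Sfrp1 at 74.4 and 72.9 against 9.15 and 7.84 (2.98 ± 0.15, adjusted p = 4.45e-09). Among ligands and receptors, 4 rose and 5 fell of 30, with Wnt8a at 6.4 and 8.21 TPM against 56.8 and 62.7 (-2.88 ± 0.25, adjusted p = 5.31e-07).

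BMP targets gave 5 rises and 1 fall among 19. Id1 was lower without a call, at 476 and 463 TPM against 810 and 905 (-0.87 ± 0.12, adjusted p = 7.61e-05), and Id4 was the fall, at 12.7 and 9.64 against 30.5 and 27.5. The pseudoreceptor Bambi rose to 65.8 and 62.8 TPM from 13.7 and 13.9 (2.14 ± 0.20, adjusted p = 1.09e-06), and the inhibitory Smad6 to 76.5 and 81.4 from 36.4 and 32.5.

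Targets of YAP and TEAD, which respond to cell contact and tension, were split with 5 rises and 5 falls among 28. The classical targets Cyr61 and Ctgf fell, Cyr61 to 120 and 122 TPM from 248 and 423 and Ctgf to 26.7 and 25.4 from 66.3 and 88 (-1.52 ± 0.16, adjusted p = 2.90e-06). Nt5e was at 5.97 and 5.67 TPM, between WT at 63.3 and 75.7 and TKO at 2.16 and 1.38. Without WT replicate 2 the rises of this list were 3 in place of 5. The output genes of FGF and ERK signalling had 2 rises (Dusp4, Myc) and 2 falls (Egr1, Fgfbp1) among 18, and Notch genes 2 rises (Jag1, Hey2) and 1 fall (Jag2) among 20. Of all tested genes 5.56% rose and 4.3% fell. The FGF-ERK and Notch counts are small beside these shares and are not read as results about the pathways.

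Several immediate early genes were lower in Cdh1-Tg than in WT and in TKO. Of 20 immediate early and heat shock genes 8 fell and 1 rose against WT (median -0.77), and 7 fell and 0 rose against TKO. Fos was at 23.9 and 13 TPM in Cdh1-Tg, 526 and 666 in WT and 307 and 390 in TKO (-4.99 ± 0.41 against WT, adjusted p = 4.18e-06; -4.22 ± 0.41 against TKO, adjusted p = 7.73e-05). Egr1 was at 16.6 and 7.39 TPM against 236 and 253 in WT and 215 and 197 in TKO (-4.34 ± 0.27 against WT, adjusted p = 1.09e-07). Fosb was at 0.338 and 0.0493 TPM against 63 and 119 in WT, and Nr4a1 at 9.79 and 10.7 against 46.1 and 107. Fosl2 was the rise, at 19.1 and 20 TPM against 4.45 and 4.45.

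The line Ovol2a/2b-Tg was low in the same genes. Its PGCLC held Fos at 5.66 and 6.99 TPM, Egr1 at 3 and 1.87 and Fosb at 0.139 and 0. PGCLC of the line titled Ovol3KO lay between these lines and WT. They held Fos at 105 and 46.2 TPM, Egr1 at 147 and 117 and Fosb at 27.8 and 3.66. The histone gene Hist2h2ac was at 0.682 and 0 TPM in Cdh1-Tg PGCLC, 0 and 0.559 in Ovol2a/2b-Tg PGCLC, 42.3 and 51.1 in WT and 39.7 and 34.4 in TKO. Rasl2-9, a processed gene copy, was at 0 and 0.184 TPM in Cdh1-Tg against 22.1 and 28.7 in WT, and at 0.261 and 0.259 in Ovol2a/2b-Tg. Over all 3 stages 22 genes were lower in all 6 Cdh1-Tg and all 6 Ovol2a/2b-Tg libraries than in every one of the other 42, and 3 were higher. Among the 22 were Egr1, Hist2h2ab, Hist2h2ac, Hist1h2aa, Rasl2-9, Cks1brt, Aldoart1 and Rpl37rt, and 17 of them were called lower in Cdh1-Tg PGCLC. Several are histone genes or copies of other genes, and their values are uncertain where the counting splits reads between near copies. The sample titles of these lines follow the same style as those of WT and do not mark a batch. Library handling and line cannot be told apart. The part of handling in these results was not tested.

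**Figure D5:**
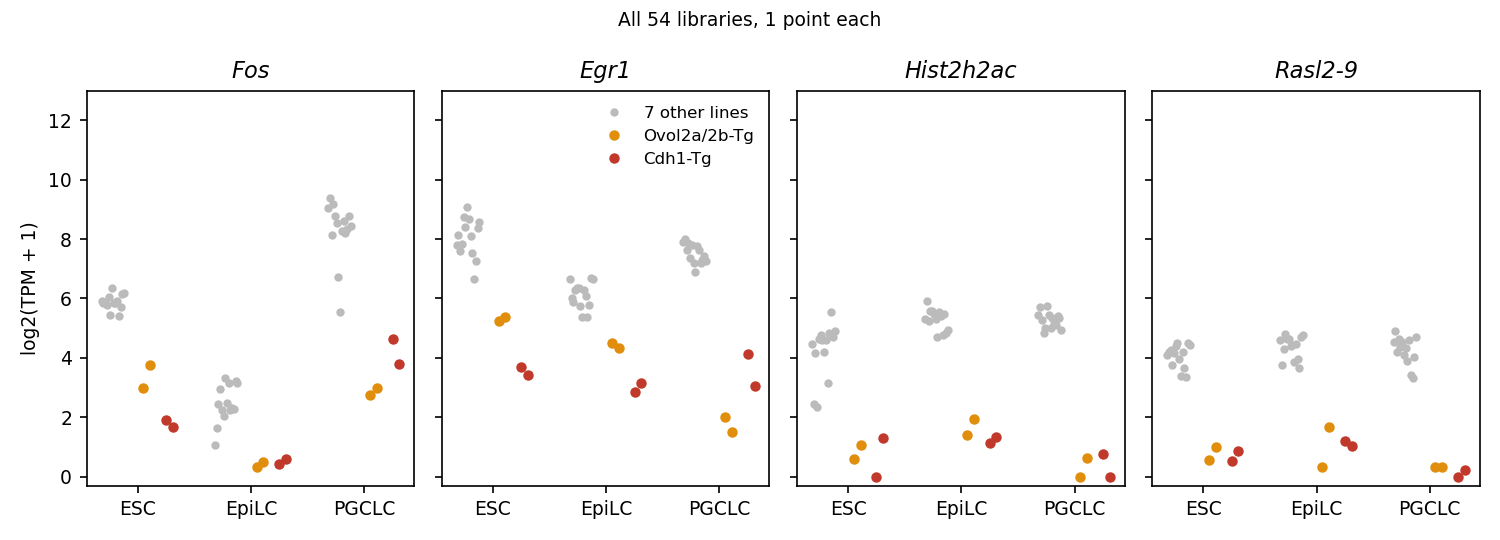
log2(TPM + 1) of Fos, Egr1, Hist2h2ac and Rasl2-9 in all 54 libraries by stage, 1 point each, for Cdh1-Tg, Ovol2a/2b-Tg and the 7 other lines. Egr1, Hist2h2ac and Rasl2-9 are lower in Cdh1-Tg and Ovol2a/2b-Tg than in every other library.

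Hypoxia and glycolysis genes were lower than in TKO more often than tested genes at large. Of 28 tested 1 rose and 4 fell against WT, and 0 rose and 9 fell against TKO. Of all tested genes 5.56% rose and 4.3% fell against WT, and 0.992% rose and 1.3% fell against TKO. Bnip3, a mitophagy receptor induced by low oxygen, was at 10.2 and 10.1 TPM in Cdh1-Tg, 23 and 33.1 in WT and 68.8 and 102 in TKO (-2.93 ± 0.26 against TKO, adjusted p = 4.42e-06). Pdk1, which restrains pyruvate oxidation, was at 4.98 and 4.92 TPM against 24.4 and 34.2 in WT and 19.7 and 26.9 in TKO. Ovol2a/2b-Tg PGCLC were also low, with Bnip3 at 7.8 and 6.55 TPM and Pdk1 at 7.56 and 8.57. Cholesterol synthesis genes gave 0 rises and 1 fall (Ebp) of 22 against WT and 0 rises and 3 falls (Mvd, Insig1, Tm7sf2) against TKO. Targets of p53 gave 0 rises and 2 falls (Perp, Btg2) of 22 against WT and 3 rises (Ccng1, Eda2r, Plk2) and 0 falls against TKO.

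Imprinted genes rose more than they fell, 7 against 1 of 26. Mest was at 341 and 338 TPM against 20.8 and 20.6 in WT (3.97 ± 0.24, adjusted p = 8.39e-08), and Dlk1 at 170 and 158 against 8.54 and 6.52 (4.28 ± 0.37, adjusted p = 1.68e-06). Igf2 was at 43.7 and 39.4 TPM against 17.8 and 12. The fall was Nnat, at 2.51 and 3.34 TPM against 24.9 and 28.

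Y-linked genes differed between Cdh1-Tg and WT at every stage. Of 7 tested, 4 fell in PGCLC, 6 in EpiLC and 5 in ESC, and 0 rose. In PGCLC their summed level was 2.93 and 1.51 TPM in Cdh1-Tg and 65.9 and 61.8 in WT. It was also low in TKO, at 2.32 and 3.4 TPM, and in Ovol2a/2b-Tg, at 0.524 and 0 TPM. Ddx3y was at 1.24 and 1.08 TPM in Cdh1-Tg PGCLC, 1 and 1.77 in TKO and 23.2 and 20.4 in WT. Eif2s3y was at 0.9 and 0.105 TPM against 26.4 and 27.5 in WT. In EpiLC Ddx3y was at 2.56 and 3.08 TPM in Cdh1-Tg and 23.5 and 26.9 in WT, so this difference between the lines preceded the PGCLC stage.

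Markers of other cells that the culture could hold moved in both directions. Of all tested genes 5.56% rose and 4.3% fell. Endothelium and blood genes gave 4 rises and 1 fall among 22, the falls near the share of all tested genes. Their summed levels were 111 and 109 TPM in Cdh1-Tg against 87.4 and 76.2 in WT. The endothelial cadherin Cdh5 was at 1.92 and 1.68 TPM against 0.74 and 0.789 and was not called. Fibroblast genes gave 8 rises and 0 falls among 17, summed 989 and 1090 TPM against 467 and 405, with 1 and 0 members at 0 in the Cdh1-Tg libraries. Neural genes gave 7 rises and 2 falls among 20 (241 and 245 TPM against 202 and 206), trophoblast genes 5 rises and 2 falls among 18 (1770 and 1710 against 754 and 689), and endoderm genes 5 rises and 5 falls among 20 (728 and 784 against 1550 and 1800). Many members are shared with the mesoderm, matrix and streak lists, such as Hand1, Cdx2, Gata6 and Col1a1, and the part of other cells in the result was not tested.

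Cdh1-Tg also differed from WT at the earlier stages. In EpiLC 911 of 14416 genes (6.32%) were called, 520 higher (3.61%) and 391 lower (2.71%), and in ESC 943 (6.54%), 303 higher (2.1%) and 640 lower (4.44%). The interaction of line and stage, PGCLC against EpiLC, was called in 1385 genes (9.61%), 697 higher (4.83%) and 688 lower (4.77%). Of the 1421 genes called in PGCLC, 749 (52.7%) had a called interaction. Since both contrasts use the same PGCLC libraries, most of these lay in the same direction, 406 higher with a positive interaction and 336 lower with a negative one.

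Some epithelial genes were already down in EpiLC. Ap1m2 was at 0.542 and 1.03 TPM in Cdh1-Tg EpiLC against 39.2 and 38.7 in WT, and Cldn7 at 13.5 and 15.4 against 145 and 133. TKO EpiLC were low in both genes too, with Ap1m2 at 1.17 and 0.536 TPM and Cldn7 at 12.4 and 12.5. Epcam, in contrast, was not called in Cdh1-Tg EpiLC, at 314 and 308 TPM against 354 and 343 in WT EpiLC. Its interaction was -2.65 ± 0.16 (adjusted p = 1.58e-14). Esrp1 was already lower in EpiLC, at 36.1 and 36.5 TPM against 86.8 and 81.8, and the difference widened by -3.99 in the interaction. Over the epithelial list the calls were 11 falls and 0 rises of 31 in EpiLC and 16 falls and 2 rises in ESC.

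The EMT list already differed in EpiLC, with 11 rises and 2 falls of 28. Cdh2 had a larger difference in EpiLC (2.53) than in PGCLC (1.39), an interaction of -1.14 that was called. Zeb1 was at 13.6 and 14.3 TPM in Cdh1-Tg EpiLC against 1.81 and 1.97, close to its PGCLC level, and its interaction was not called (0.96). For Hox genes the calls in EpiLC were 0 of 11 in Hoxa, 0 of 9 in Hoxb and 1 of 16 in Hoxc and Hoxd, and the lateral mesoderm list had 3 rises of 26.

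The general pluripotency list had 0 rises and 1 fall of 17 in EpiLC and the naive list 1 rise and 7 falls of 20 (median -0.57), with Dppa5a already lower (-1.98). The interaction was called in 12 of the 17 general genes, all negative, and Nanog had a log2 fold change of 0.26 in EpiLC with an interaction of -2.52. Smooth muscle actin, Acta2, changed sides: it was lower than WT in EpiLC (-1.88 ± 0.21, adjusted p = 1.41e-08) and higher in PGCLC (83.2 and 82.9 TPM against 24.7 and 21.3), an interaction of 3.69 ± 0.30 (adjusted p = 1.58e-11).

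The direct test against TKO divides the genes that differed from WT. Of the 1421 genes that differed from WT, 1277 (89.9%) were not called against TKO, which does not show that they were equal. Of the remaining 144, 45 were higher and 79 lower than both lines, and 20 lay between WT and TKO, 10 above WT and below TKO and 10 the other way. TKO and Cdh1-Tg share the WT libraries as a reference, so a likeness of their differences from WT is not independent.

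The largest rises against TKO were Cdh1, Sprr2k, AY074887, Mup6, 1700019D03Rik and Pet117, and the largest falls Sprr2b, Fosb, Hist2h2ab, Hist2h2ac, Fos and Rasl2-9. Sprr2b, a gene of the cornified envelope family, was at 2.28 and 2.93 TPM in Cdh1-Tg, 71.7 and 54.9 in WT and 213 and 282 in TKO (-6.10 ± 0.49 against TKO, adjusted p = 1.09e-05). The closely related Sprr2k was at 3.99 and 7.28 TPM in Cdh1-Tg and listed at 0 in WT and TKO. Reads of such near copies can be split between them by the counting, so both values are uncertain. Sprr2b was also low in PGCLC of Ovol2a/2b-Tg, at 1.88 and 2.62 TPM, and of the line titled Ovol3KO, at 0.344 and 0 TPM. Apln, a secreted peptide of vessel and mesoderm development, lay between the lines, at 3.44 and 4.49 TPM against 23.6 and 38.6 in WT and 0.492 and 1.16 in TKO (1.46 ± 0.39 against TKO, adjusted p = 0.0167).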

How the data were processed

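Poly(A) RNA of 54 libraries was sequenced. The submitters' processing notes name HISAT2, featureCounts, edgeR and mm10, with no versions or strand setting. The deposited table holds TPM per gene, which the authors made and which is used here as deposited. Whole reads recovered from its steps gave the depth and an added limma-voom fit. limma 3.58.1 in R 4.3.3 was fitted to log2(TPM + 1), with trended and robust variances, for genes with at least 1 TPM in at least 2 libraries. PGCLC contrasts used 18 libraries (9 residual degrees of freedom) and stage contrasts 54 (27). The script was tested on simulated data. Named genes were Cdh1 and the Ovol genes, the 12 largest rises and falls, up to 6 called members of each list and the largest opposite to it, all tested cadherins and catenins, and the 6 largest rises and falls in the interaction and against TKO. Members and lists were chosen with earlier results of these data known. Pseudocount, filter, scaling, library omission and replicate block were varied.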

Additional observations from a re-analysis of the deposited data

Results flagged for a closer look

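For 12 genes the difference between Cdh1-Tg and WT was not the same in PGCLC as in EpiLC by a test of that difference (limma interaction, BH adjusted p over 14416 genes, values on the log2 scale). They were the 6 largest in each direction. The interaction was 4.76 ± 0.34 for Pecam1 (adjusted p = 9.01e-13), which was lower than WT in EpiLC (-2.45) and higher in PGCLC (2.31). It was 4.42 for Unc5c, 4.32 for Adgra3, 4.24 for Rgs5 and 4.02 for Hoxb6, whose EpiLC differences lay between 0.03 and 0.20. For Pik3ip1 it was 4.13, with an EpiLC difference of -0.96.

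On the negative side Fosb had -5.63 ± 0.83 (adjusted p = 4.71e-06), Cldn6 -4.41 and Tdh -4.39. Fgf5 had -4.24 and Apln -4.23, both higher than WT in EpiLC (1.23 and 1.58) and lower in PGCLC. Sprr2b had -4.15 and was listed at 0 in the EpiLC libraries of both lines. Fosb also stood low in the Ovol2a/2b-Tg PGCLC libraries, at 0.139 and 0 TPM, and the part of library handling was not tested.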

How the results depend on the processing

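With a pseudocount of 5 TPM the calls against WT were 637 (361 higher, 276 lower), those against TKO 114 (30 and 84) and those of the interaction 583 (338 and 245). A pseudocount of 0.1 gave 238 higher calls against TKO. limma-voom on recovered reads, an alternative chosen after seeing the data, gave 1079 lower calls against WT, 747 against TKO (330 higher, 417 lower) and 1151 lower calls in the interaction. The cause was not tested. Leaving out 1 library at a time gave 1328 to 1565 calls against WT (736 to 898 higher, 582 to 667 lower), 256 to 356 against TKO (112 to 185 and 140 to 185) and 1249 to 1434 in the interaction (643 to 717 and 606 to 744). An arm left with 1 library is assumed to vary like the other groups. Ctnnb1 turned to -0.01 under quantile, -0.03 under median scaling and -0.04 with limma-voom. Same-numbered libraries did not deviate together (correlations of -0.03 to 0.00 over 8156 genes), so the numbers do not pair them. The replicate block gave 1423, 328 and 1375 calls. Of 227 results for named genes 164 kept direction and call in every alternative run, 62 lost the call in at least 1 and 1 reversed.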
